A study of Homo sapiens with 97 samples.

Results

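The transcripts described here are those of 4 RNA helicase genes, DDX5, DDX17, DDX39A and DDX39B, out of the 60675 gene identifiers in each count table of the series. They were chosen by their labelling in nuclear APEX2 constructs, where DDX17 and DDX39B stood high, and each was set beside its closest paralog. Values from the nuclear constructs are therefore given as a description without a test. Cells were HEK293T, a human embryonic kidney cell line, stably expressing APEX2, an engineered peroxidase that, given biotin-phenol and hydrogen peroxide, biotinylates RNA close to it. There were 9 constructs: NLS directs APEX2 to the nucleus, NIK to the nucleolus, LMA to the lamina and NUCP to the nuclear pore. NES keeps it in the cytosol, ERM holds it on the cytosolic face of the endoplasmic reticulum, KDEL in the lumen of that organelle, OMM on the outer membrane of mitochondria and MITO in their matrix.

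Labelled libraries hold the enriched RNA of cells given biotin-phenol and peroxide, and unlabelled libraries come from cells carried through the same steps without peroxide. The labels describe all libraries as made from enriched RNA, so an unlabelled library may hold RNA recovered without labelling rather than a direct sample of the cell's RNA, and it is called unlabelled RNA below. Every group had 2 biological replicates. Besides the 36 poly(A) libraries of the 9 constructs, there were 24 libraries of NES and OMM cells given cycloheximide, puromycin or CCCP, and 28 libraries of NES and OMM cells in nocodazole for 3, 6, 9 or 30 min or 2 h, with unlabelled controls at 3 and 30 min. A further 4 poly(A) libraries came from nuclear and cytosol fractions of HEK293T cells without labelling, and 4 libraries from total RNA of the MITO construct. Levels below are CPM, the read count of a gene relative to the library size after TMM scaling within each table, so levels from different tables are not on one scale. Levels of overlapping genes, of cell type markers and in the measure of complexity are relative to total counts, without TMM scaling. A log2 fold change is the first group named minus the second, with its standard error (SE). A gene is said to be called, to rise or to fall where the quasi-likelihood test of edgeR gave an adjusted p under 0.05 over all genes tested.

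DEAD-box helicases are ATP-dependent proteins that remodel RNA and RNA-protein complexes. DDX5 (p68) and DDX17 (p72) are close paralogs that act in transcription, splicing and, as parts of the large Drosha complex, in microRNA processing. DDX39B (UAP56) and its paralog DDX39A (URH49) act in spliceosome assembly and in loading the TREX complex on mRNA for nuclear export. The RNAs measured here are the transcripts of these genes, not the proteins.

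All 4 genes lie on the minus strand of GRCh38. DDX5 (ENSG00000108654) spans chr17:64499616-64508199, DDX17 (ENSG00000100201) chr22:38483440-38507660, DDX39A (ENSG00000123136) chr19:14408819-14419383 and DDX39B (ENSG00000198563) chr6:31530219-31542448. GENCODE 29 lists 35 transcripts for DDX5, 11 of them with a retained intron, 12 for DDX17 with 4, 21 for DDX39A with 9, and 21 for DDX39B with 5. The helicase motif II, Asp-Glu-Ala-Asp in DDX5 and DDX17 and Asp-Glu-Cys-Asp in both DDX39 proteins, shows how far the paralogs can be told apart by a read. Each window below has 75 bases, the length of 1 sequencing read, and comes from the coding sequence of 1 GENCODE transcript, with the codons of motif II in capitals.

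DDX5: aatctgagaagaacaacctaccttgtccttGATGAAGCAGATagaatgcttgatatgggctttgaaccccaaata

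DDX17: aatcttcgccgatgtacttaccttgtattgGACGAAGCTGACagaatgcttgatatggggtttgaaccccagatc

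DDX39A: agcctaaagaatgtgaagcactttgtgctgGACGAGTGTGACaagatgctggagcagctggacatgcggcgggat

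DDX39B: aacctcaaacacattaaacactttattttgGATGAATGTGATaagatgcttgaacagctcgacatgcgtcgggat

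The DDX5 window lies in an exon at chr17:64503212-64503286 and the DDX17 window in an exon at chr22:38494910-38494984. The DDX39A window joins parts of a pair of exons at chr19:14410989-14411049 and chr19:14410321-14410334, and the DDX39B window likewise joins chr6:31536500-31536560 and chr6:31535472-31535485. Over these 75 bases DDX5 and DDX17 differ at 17 positions, and DDX39A and DDX39B at 18. Over the aligned coding sequences, identity was 68.7% for DDX5 and DDX17 and 80% for DDX39A and DDX39B, and the longest identical run was 26 bases in both pairs. Of the stretches of read length in the main transcripts of DDX5, DDX17 and DDX39A, 0 occurred in any transcript of another gene, so reads of the paralogs can be kept apart at this length.

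DDX39B is the exception, since a read-through gene, ATP6V1G2-DDX39B, covers its locus on the same strand. Of 2059 stretches of read length in its main transcript, 1935 (94%) also occur in the read-through transcripts. The read-through gene itself had 0 counts in every library of the constructs, nocodazole and MITO tables and at most 22 with the drugs. How reads that fall in both genes were counted is not given in the sources used here. The counts above show that reads in shared stretches were hardly counted to the read-through gene. Of the 7007 annotated exon bases of DDX39B, 2079 are shared with the read-through gene, and of the 4928 others 4874 lie outside its main transcript. If reads falling in both genes were left out, most DDX39B counts would come from outside its main transcript. Whether DDX39B counts come mainly from its spliced mRNA or from other parts of the locus cannot be told from these sums. All DDX39B values below are values of this count. On the opposite strand DDX5 overlaps CEP95, DDX17 overlaps KDELR3 at its end, and DDX39B overlaps DDX39B-AS1 and MCCD1. The libraries were stranded, but the strand setting of the counting is not given in the sources used here. CEP95 had a median of 55.1 CPM and KDELR3 of 16.6 CPM over the 36 construct libraries.

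Library depth was 9330259 to 76714068 counts in the constructs table, 22749527 to 55763066 with drugs, 15473060 to 33966883 with nocodazole, 34961110 to 44973261 for the fractions and 2835969 to 76714068 for MITO. Among the construct libraries the lowest count of a member was 632 for DDX39A and 1359 for DDX39B, and in the total RNA libraries of MITO DDX39A went down to 49 counts. As a measure of complexity, the share of well-expressed genes (mean level in the table of 5 CPM or more) with no count in a library was over 2% in 7 of 36 construct libraries (at most 6.06%), in 3 of 24 drug libraries (at most 7.75%) and in 6 of 28 nocodazole libraries (at most 16.26%). The 5 HEK293T markers listed had a row in every table, with a summed level of 307 to 1045 CPM in the construct libraries. The 5 markers of blood, liver, fibroblasts, endothelium and T cells summed to 0.0528 to 34.0 CPM there. Most of the HEK293T sum was VIM, with a median of 589 CPM. KRT8 and PAX2 had medians of 7.955 and 2.07 CPM and went down to 0 counts. Both medians were below that of the fibroblast marker COL1A1 (11.3 CPM). MALAT1, a nuclear noncoding RNA, had a log2 fold change of 3.65 ± 0.52 in NLS labelling and of 4.52 ± 0.20 in the nuclear over the cytosol fraction.

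In unlabelled RNA of the 9 constructs all 4 transcripts were well measured in each of 18 libraries. DDX5 ranged from 646 to 1384 CPM with a median of 943, DDX17 from 469 to 1238 with a median of 786, DDX39B from 118 to 298 with a median of 207 and DDX39A from 79.7 to 169 with a median of 129. Per kb of annotated exon the median levels were 128 CPM per kb for DDX5, 78.7 for DDX17, 33.7 for DDX39A and 29.5 for DDX39B. The order of the last pair depends on the length used, since over the 4928 exon bases of DDX39B outside the read-through gene its median was 41.97 CPM per kb. From the lowest to the highest unlabelled library the level differed 2.64-fold for DDX17, 2.53-fold for DDX39B, 2.14-fold for DDX5 and 2.12-fold for DDX39A, so the controls of the constructs are not alike. In bulk RNA, a change in the RNA per cell cannot be told apart from a change in the cells sampled.

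DDX17 had its highest levels in labelled libraries of the lamina and nucleus constructs. In NLS it had 3012 and 3344 CPM in labelled libraries, against 676 and 595 CPM in unlabelled ones, a log2 fold change of 2.32 ± 0.19. In LMA it had 3898 and 3640 CPM in labelled libraries, against 469 and 629 CPM in unlabelled ones (2.78 ± 0.19). In NIK it had 2315 and 2077 CPM in labelled libraries, against 693 and 692 CPM in unlabelled ones (1.66 ± 0.18). In these 3 constructs every labelled DDX17 library was above every unlabelled library of the 9 constructs. At the nuclear pore the levels were 1188 and 1066 CPM in labelled libraries, against 985.1 and 795 CPM in unlabelled ones (0.34 ± 0.18). The labelled levels of DDX17 thus ran from LMA through NLS, NIK and NUCP to NES without an overlap of neighbours, and those of NES, KDEL, ERM, MITO and OMM overlapped with the next in order. The NIK labelled libraries lacked 6.06% and 2.94% of well-expressed genes, and the part of this in the NIK values was not tested.

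DDX39B was also highest in the labelled libraries of NLS and LMA. In NLS it had 872 and 873 CPM in labelled libraries, against 173 and 143 CPM in unlabelled ones (2.47 ± 0.21). In LMA it had 769 and 778 CPM in labelled libraries, against 209 and 201 CPM in unlabelled ones (1.91 ± 0.20). In NIK it had 418 and 356 CPM in labelled libraries, against 125 and 118 CPM in unlabelled ones (1.67 ± 0.20). The NIK unlabelled libraries held the lowest DDX39B levels of all unlabelled construct libraries, and against the unlabelled libraries of all 9 constructs the NIK value was 0.96. At the nuclear pore DDX39B had 338 and 348 CPM in labelled libraries, against 207 and 214 CPM in unlabelled ones (0.70 ± 0.20), which was the largest of the 4 members there.

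The 2 paralogs did not share this range. DDX5 had 1347 and 1542 CPM in NLS labelled libraries, against 976 and 827 CPM in unlabelled ones (0.68 ± 0.20), and its log2 fold changes were 0.61 ± 0.20 in LMA, 0.60 ± 0.20 in NIK and 0.16 ± 0.20 in NUCP. Its labelled levels in NIK, NUCP, LMA and MITO each overlapped with the next in order. DDX39A had 144 and 122 CPM in NLS labelled libraries, against 135 and 162 CPM in unlabelled ones (−0.16 ± 0.30), and its log2 fold changes were −0.45 ± 0.30 in LMA, −0.31 ± 0.30 in NIK and 0.25 ± 0.30 in NUCP. Labelled and unlabelled levels of DDX39A overlapped in all 4 nuclear constructs. As a background, of the 22680 genes tested 2.78% were called higher and 2.42% lower in NLS labelling, 3.68% and 4.00% in LMA, 1.28% and 3.96% in NIK, and 0% either way in NUCP, where edgeR had 1342 genes at an unadjusted p under 0.05 and DESeq2 called 237. In the authors' deposited table the log2 fold changes for NLS were 2.02 for DDX17, 2.12 for DDX39B, 0.65 for DDX5 and 0.13 for DDX39A. In the same order of genes they were 2.31, 1.99, 0.21 and −0.27 for LMA and 1.51, 0.97, 0.34 and −0.49 for NIK. For NUCP they were 0.54, 0.78, 0.22 and 0.28. Several, such as DDX5 in LMA and DDX39B in NIK, were nearer 0 than here. Each is on a scale whose control set the headers do not explain.

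**Figure D1:**
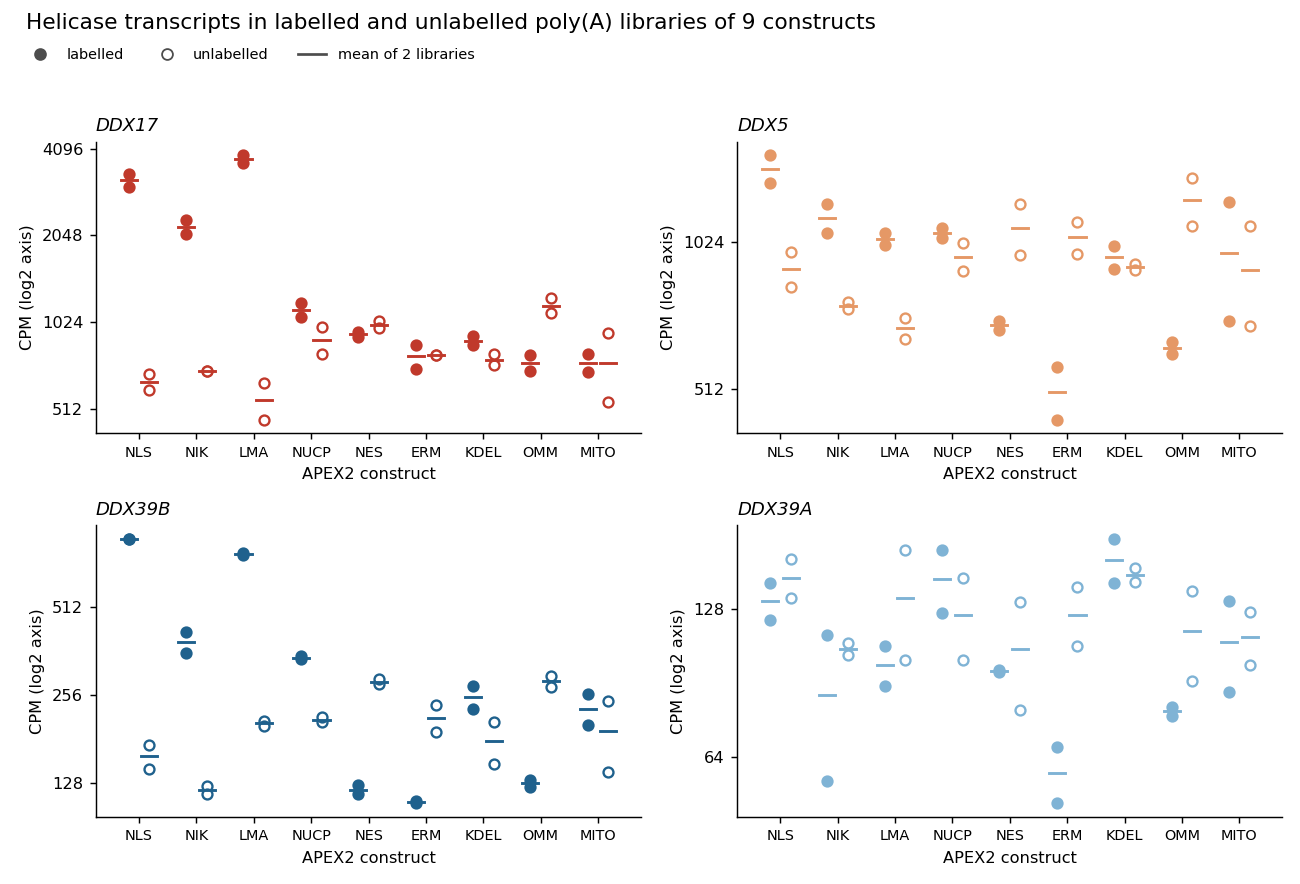
CPM on a log2 axis of each helicase transcript in every poly(A) library of the 9 constructs, filled circles for labelled and open circles for unlabelled libraries, with a bar at the mean of 2. DDX17 and DDX39B stand apart from their controls in NLS, NIK and LMA, with DDX17 at 3640 and 3898 CPM in labelled LMA libraries, whereas DDX39A labelled libraries overlap with their controls there.

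Subtracting the NES labelling contrast raised the values of DDX5 by more than those of DDX17, so this pair lay closer together in NLS, LMA and NIK. DDX5 had a mean of 690 CPM in labelled and 1094 CPM in unlabelled NES libraries. On the difference of labelling contrasts (a nuclear construct minus NES) DDX5 had log2 values of 1.35 ± 0.28 for NLS, 1.27 ± 0.28 for LMA and 1.26 ± 0.28 for NIK. DDX17 had 2.44 ± 0.25, 2.89 ± 0.25 and 1.78 ± 0.25 for the same constructs, and DDX39B 3.14 ± 0.29 for LMA and 2.89 ± 0.29 for NIK. DDX39A lay between −0.30 and 0.40 in all 4 nuclear constructs. For the nuclear pore DDX39B had a difference of 1.93 ± 0.28 and DDX17 of 0.45 ± 0.25, so that the pore, too, was further from NES for DDX39B than for DDX17. Of all genes tested, 1.35% were called higher and 0.922% lower for NLS minus NES, 1.68% and 3.16% for NIK, 1.89% and 2.15% for LMA, and 0.516% and 0.176% for NUCP. These differences share the NES libraries and are given side by side as a description. The unlabelled NES libraries were high in DDX39B, with a mean of 284 CPM against a median of 207 CPM over the 18 unlabelled construct libraries.

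Fractionation sets nuclear against cytosolic RNA without labelling, whereas labelled libraries were set against unlabelled ones. The members were chosen by nuclear labelling, but with earlier results of these data known. The tests here may therefore not be independent of that choice. DDX39B and DDX17 had the most nuclear counts of the 4 genes, DDX5 was less so, and DDX39A was not called. For DDX39B these counts may not come from its spliced mRNA. DDX39B had 514 and 566 CPM in nuclear fractions, against 131 and 141 CPM in cytosol fractions, a log2 fold change of 1.99 ± 0.17 (edgeR adjusted p = 2.9e-06). DDX17 had 2475 and 2452 CPM in nuclear fractions, against 689 and 789 CPM in cytosol fractions (1.74 ± 0.17, edgeR adjusted p = 7.3e-06). DDX5 had 1970 and 1778 CPM in nuclear fractions, against 1054 and 1058 CPM in cytosol fractions (0.83 ± 0.17, edgeR adjusted p = 0.00095). For these 3 transcripts both nuclear libraries were above both cytosol libraries, in a comparison that called 34.2% of all genes tested higher. DDX39A had 176 and 154 CPM in nuclear fractions, against 196 and 218 CPM in cytosol fractions (−0.32 ± 0.17, edgeR adjusted p = 0.11), with both nuclear libraries below both cytosol libraries.

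The 3 of 4 members called higher are to be read against that share of the 19115 genes tested, with 27.8% called lower and a median log2 fold change of 0.11. A call alone is thus common in this comparison, and the sizes were 3.97-fold for DDX39B, 3.33-fold for DDX17 and 1.77-fold for DDX5. Without cytosol fraction replicate 1 or 2 the DDX5 call was lost (0.82 with edgeR adjusted p = 0.0517, and 0.83 with edgeR adjusted p = 0.0596), and the other calls held without any 1 of the 4 libraries. CEP95, on the opposite strand of DDX5, also rose in the nuclear fraction by a log2 value of 1.21 ± 0.17 (edgeR adjusted p = 7.1e-05). At 53.0 to 189 CPM without TMM scaling it was well under the TMM-scaled DDX5 level, and its share in the DDX5 counts was not tested.

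**Figure D2:**
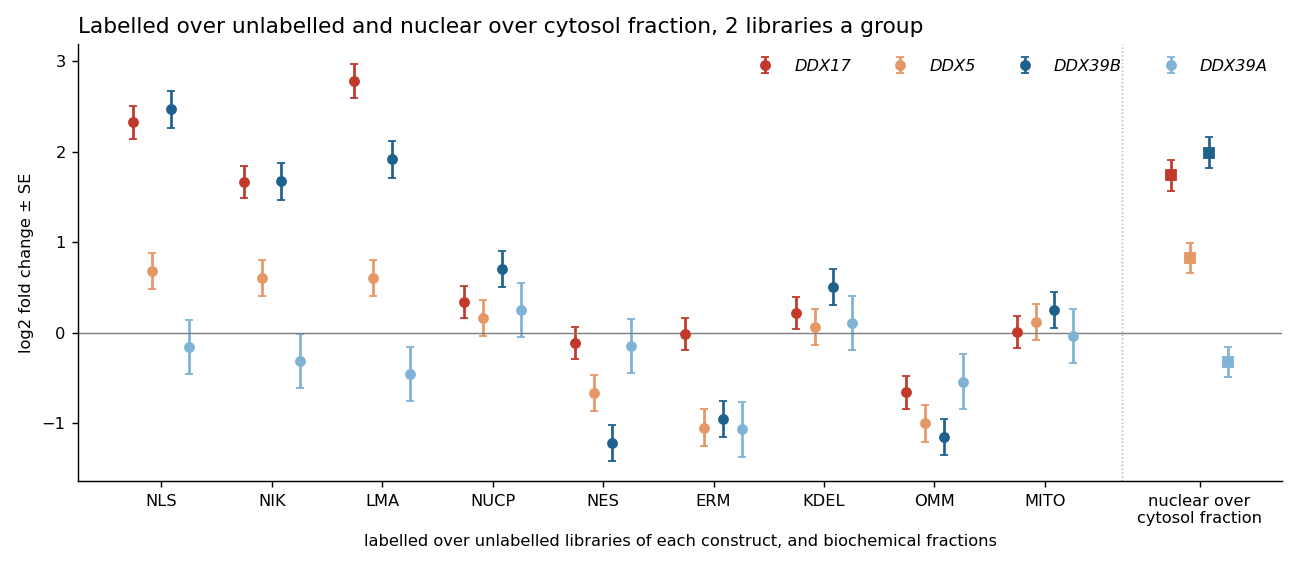
Log2 fold change with its standard error of each helicase transcript in labelled over unlabelled libraries of the 9 constructs (circles) and in nuclear over cytosol fractions (squares), from 2 libraries a group. DDX39B runs from 2.47 in NLS to −1.22 in NES, whereas DDX17 lies near 0 in NES and ERM.

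On the cytosolic side the members separated in another way: DDX39B and DDX5 were depleted from labelled RNA, DDX17 mostly was not. In NES, which labels the cytosol, DDX39B had 126 and 117 CPM in labelled libraries, against 279 and 289 CPM in unlabelled ones (−1.22 ± 0.20, edgeR adjusted p = 0.00021). DDX5 had 705 and 674 CPM in labelled NES libraries, against 1225 and 963 CPM in unlabelled ones (−0.67 ± 0.20, edgeR adjusted p = 0.054), a difference that was not called. DDX17 had 910 and 944 CPM in labelled NES libraries, against 1030 and 974 CPM in unlabelled ones (−0.11 ± 0.18, edgeR adjusted p = 0.90). DDX39A had 96.1 and 95.4 CPM in labelled NES libraries, against 79.7 and 133 CPM in unlabelled ones (−0.15 ± 0.30, edgeR adjusted p = 0.95). The 1 member called lower compares with 2.50% of all genes tested, and 1.38% were called higher. The unlabelled NES and OMM libraries held the highest DDX39B levels of the 18 unlabelled construct libraries, whose median was 207 CPM. The size of the DDX39B fall depends on these controls. Among the NES controls, replicate 1 lacked 3.37% of well-expressed genes. Without NES unlabelled replicate 2 the DDX5 fall was called (−0.79, edgeR adjusted p = 0.0258), as it was with DESeq2 (−0.70, adjusted p = 0.0113). With only the 4 NES libraries in the fit the DDX39B call was lost (−1.23, edgeR adjusted p = 0.253).

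At the cytosolic face of the endoplasmic reticulum, 3 of the 4 members fell, against 7.60% of genes tested called lower and 5.26% called higher. DDX5 had 442 and 568 CPM in labelled ERM libraries, against 1121 and 968 CPM in unlabelled ones (−1.05 ± 0.20, edgeR adjusted p = 0.00024). DDX39A had 67.2 and 51.6 CPM in labelled libraries, against 108 and 142 CPM in unlabelled ones (−1.07 ± 0.30, edgeR adjusted p = 0.014). DDX39B had 112 and 109 CPM in labelled libraries, against 192 and 236 CPM in unlabelled ones (−0.95 ± 0.20, edgeR adjusted p = 0.00071). For these members the groups did not overlap. DDX17 was not called, with 706 and 855 CPM in labelled libraries, against 789 and 784 CPM in unlabelled ones (−0.01 ± 0.18, edgeR adjusted p = 1). The DDX39A call was lost without ERM labelled replicate 2 (edgeR adjusted p = 0.135) or without ERM unlabelled replicate 2 (edgeR adjusted p = 0.148), both at −0.89. ERM labelled replicate 1 lacked 5.02% of well-expressed genes.

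At the outer mitochondrial membrane 3 members fell as well, with 1.98% of genes tested called lower and 3.00% higher. DDX39B had 131 and 124 CPM in labelled OMM libraries, against 272 and 298 CPM in unlabelled ones (−1.16 ± 0.20, edgeR adjusted p = 2e-04). DDX5 had 637 and 604 CPM in labelled libraries, against 1105 and 1384 CPM in unlabelled ones (2.00-fold lower, with an SE of 0.20 on the log2 scale, edgeR adjusted p = 0.0011). DDX17 had 783 and 693 CPM in labelled libraries, against 1238 and 1097 CPM in unlabelled ones (−0.66 ± 0.18, edgeR adjusted p = 0.019). The highest DDX17, DDX5 and DDX39B levels of the 18 unlabelled construct libraries were all in OMM libraries. The DDX17 call was lost without any 1 of the 4 libraries (−0.78 to −0.57, edgeR adjusted p = 0.0566 to 0.226), and against the unlabelled libraries of all 9 constructs it was −0.09 (edgeR adjusted p = 0.886). The DDX5 call was lost without OMM unlabelled replicate 2 (−0.83, edgeR adjusted p = 0.0658), a library that lacked 4.06% of well-expressed genes. DDX39A had 81.0 and 77.7 CPM in labelled libraries, against 91.6 and 139 CPM in unlabelled ones (−0.54 ± 0.30, edgeR adjusted p = 0.44).

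In the membrane-enclosed compartments no member was called. In the endoplasmic reticulum lumen (KDEL) the log2 fold changes were 0.51 ± 0.20 for DDX39B, 0.22 ± 0.18 for DDX17, 0.10 ± 0.30 for DDX39A and 0.07 ± 0.20 for DDX5. No gene at all was called there by edgeR or DESeq2, and 46 had an unadjusted p under 0.05. In the matrix (MITO) the values were 0.25 ± 0.20 for DDX39B, 0.11 ± 0.20 for DDX5, 0.00 ± 0.18 for DDX17 and −0.04 ± 0.30 for DDX39A, with 0.877% of genes called higher and 0.181% lower. The MITO libraries of a group differed widely, DDX5 having 1233 and 705 CPM in labelled libraries, against 687 and 1104 CPM in unlabelled ones. In total RNA of the MITO construct, prepared without poly(A) selection, DDX17 had 594 and 562 CPM in unlabelled libraries, against 296 and 505 CPM in the unlabelled poly(A) libraries of the same table (0.53 ± 0.27, edgeR adjusted p = 0.36). No member was called between total and poly(A) RNA, where 1.44% of 14911 genes were called higher and 0.429% lower. In labelled over unlabelled total RNA of MITO the lowest value was that of DDX39A (−1.01 ± 0.34, edgeR adjusted p = 0.30), and no member was called, with 0.624% of genes called higher and 0.0134% lower.

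Within a library the ratio of a gene pair does not depend on the scaling, so it compares the counts of the paralogs directly. The log2 ratio of DDX17 over DDX5 counts was between −0.53 and 0.16 in the 18 unlabelled libraries. It was 1.95 and 1.77 in labelled LMA libraries, against −0.46 and −0.19 in unlabelled ones. It was 1.16 and 1.12 in labelled NLS libraries, against −0.53 and −0.48 in unlabelled ones. In ERM it was 0.67 and 0.59 in labelled libraries, against −0.51 and −0.30 in unlabelled ones. The mean shift was 2.19 in LMA, 1.64 in NLS, 1.07 in NIK, 1.04 in ERM, 0.54 in NES, 0.33 in OMM, 0.18 in NUCP, 0.16 in KDEL and −0.04 in MITO, and it was 0.91 in the nuclear over the cytosol fraction. In NLS, LMA and NIK both DDX17 and DDX5 were higher in labelled libraries, DDX17 by more, and in ERM DDX5 was lower.

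The log2 ratio of DDX39B over DDX39A was higher in labelled libraries of NLS, LMA and NIK and lower in those of NES and OMM. It was 2.60 and 2.84 in labelled NLS libraries, against 0.36 and −0.18 in unlabelled ones. It was 3.10 and 2.85 in labelled LMA libraries, against 1.05 and 0.25 in unlabelled ones. In NES it was 0.39 and 0.30 in labelled libraries, against 1.81 and 1.13 in unlabelled ones. The mean shift was 2.63 in NLS, 2.33 in LMA, 2.06 in NIK, 0.45 in NUCP, 0.43 in KDEL, 0.36 in MITO and 0.12 in ERM, against −1.12 in NES and −0.64 in OMM. In fractions the ratio was 1.54 and 1.87 in nuclear libraries, against −0.58 and −0.63 in cytosol libraries, a shift of 2.31. The unlabelled ratio itself ranged from −0.18 to 1.81 over 18 libraries, and the highest of these was in NES. Since the part of the locus that gave the DDX39B counts cannot be told, this ratio may not compare the spliced mRNAs of the pair. No p is given for ratios, since the pairs were chosen with results known.

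**Figure D3:**
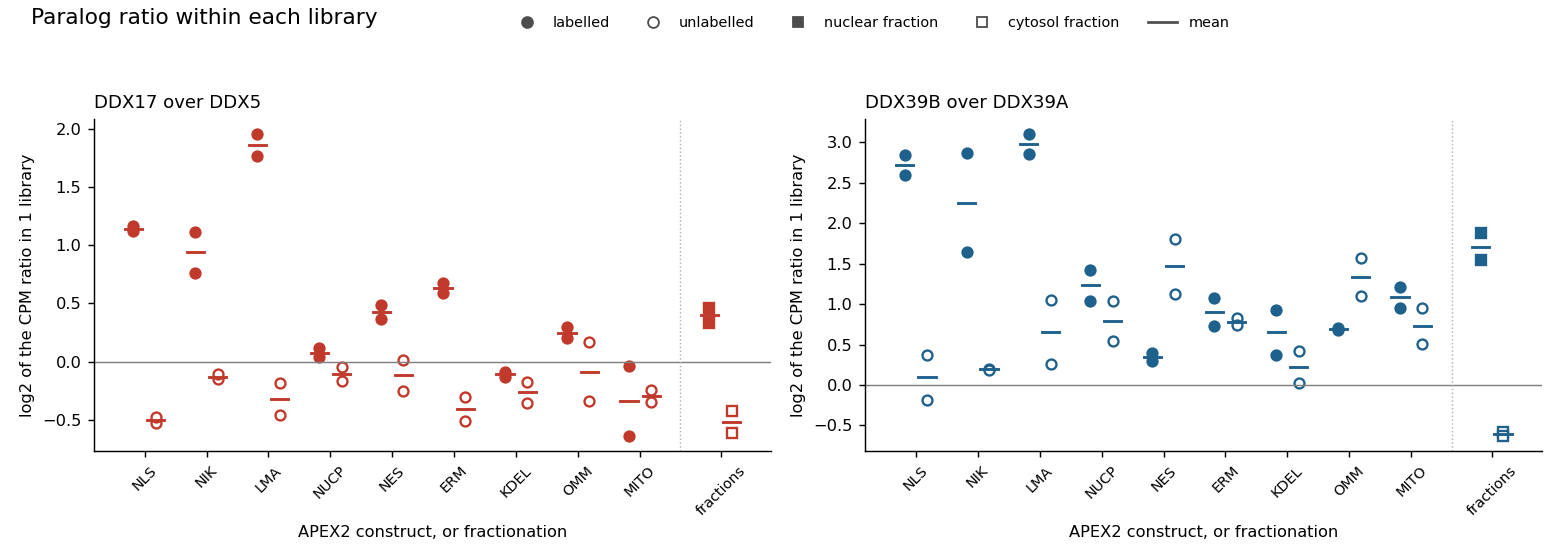
Log2 of the CPM ratio of DDX17 over DDX5 (left) and of DDX39B over DDX39A (right) in each library, filled for labelled libraries or nuclear fractions and open for unlabelled libraries or cytosol fractions, with a bar at the mean. The highest value of each panel is a labelled LMA library (1.95 and 3.10), and the DDX39B over DDX39A ratio is below its controls in NES and OMM.

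Other helicases and known partners of the members were set beside them. Of 33 further DEAD-box helicases listed, 30 passed the filter on low counts in the fractions, where 4 rose and 13 fell in nuclear over cytosol RNA, with a median of −0.24 against 0.11 over all genes. Of all genes tested there, 34.2% were called higher and 27.8% lower, and the counts of each list below are to be read against these shares. EIF4A2, a translation initiation helicase, rose by 1.46 ± 0.17, DDX51 by 1.02 ± 0.28 and DDX42, a spliceosome-associated helicase, by 0.48 ± 0.19. EIF4A3, the helicase of the exon junction complex, had −1.42 ± 0.19 and DDX49 −1.22 ± 0.20. Of 19 TREX and export partners tested, 3 rose and 11 fell (median −0.54), among them CHTOP (0.46) on the higher side and THOC7 (−2.19) on the lower. Of 12 Microprocessor and large Drosha complex genes, 5 rose and 3 fell (median 0.24). DGCR8, the partner of Drosha, rose by 1.73 and HNRNPH1 by 1.32, and ILF2 had −1.08. Of 16 DEAH-box helicases 2 rose and 4 fell. The values of 1.99 for DDX39B and 1.74 for DDX17 were above those of the DEAD-box relatives named here.

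In NLS labelling 4 of 30 DEAD-box relatives and 4 of 12 Drosha complex genes rose, and 1 of each fell, where 2.78% of all genes tested were called higher and 2.42% lower. Among them DDX42 had 264 and 305 CPM in labelled libraries, against 102 and 141 CPM in unlabelled ones (1.23 ± 0.20), and HNRNPH1 was 2.51-fold higher. The TREX adaptor CHTOP rose (1.27 ± 0.25) as 1 of 19 partners tested, and 0 fell. EIF4A3 fell in NLS labelling (−0.85 ± 0.20). The list medians in NLS were −0.11 for DEAD-box relatives, −0.20 for TREX partners and 0.47 for the Drosha complex, against 0.29 over all genes.

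In ERM labelling 5 of 19 TREX partners and 7 of 12 Drosha complex genes fell and 0 rose, with medians of −0.83 and −0.68 against 0.00 over all genes, of which 7.60% were called lower and 5.26% higher. ALYREF, the TREX adaptor that binds DDX39B, had 10.4 and 45.9 CPM in labelled libraries, against 146 and 151 CPM in unlabelled ones (−2.40 ± 0.37). Of the DEAD-box relatives 4 fell, EIF4A3 (−1.99 ± 0.20) and EIF4A1 (−1.68 ± 0.21) among them, and 2 rose, DDX6 (0.83) and DDX21 (0.58). In OMM labelling 6 of 30 DEAD-box relatives and 4 of 12 Drosha complex genes fell and 0 rose, where 1.98% of all genes were called lower and 3.00% higher. In NES labelling HNRNPH1 fell (−1.20 ± 0.16) and EIF4A2 fell (−1.19 ± 0.23), both of which rose in NLS labelling, and 2.50% of all genes were called lower and 1.38% higher. DDX42 rose in NES labelling as well (0.75 ± 0.20).

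Over the 36 poly(A) libraries, log2 levels of DDX17 and DDX39B ran together (Pearson r = 0.869), those of DDX5 and DDX39B less so (0.755), and DDX5 and DDX17 had 0.592. DDX39A had −0.098 with DDX17, 0.214 with DDX39B and 0.422 with DDX5. Among 11366 well-expressed genes, those with the highest correlations included NKTR (0.951) for DDX17, IFT27 (0.930) and MAT2A (0.922) for DDX39B, the snoRNA host GAS5 (0.915) and SRSF5 (0.894) for DDX5, and for DDX39A COMMD4 (0.876) and NDUFB7 (0.838). These correlations describe levels that share libraries and labelling, and have no test. The nuclear labelled libraries by which the members were chosen are among them, so the correlations between members follow in part from that choice.

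With a drug, DDX39B and DDX5 fell in labelled RNA in all 6 groups of NES and OMM cells, DDX39A fell in 4 and DDX17 in 1. Cycloheximide stalls ribosomes on mRNA, puromycin releases nascent chains, and CCCP dissipates the mitochondrial membrane potential. The shares of the 21441 genes tested that were called lower were 7.77%, 4.59% and 5.08% in NES with cycloheximide, puromycin and CCCP, and 5.36%, 1.18% and 3.57% in OMM. In the same order 7.91%, 3.27% and 3.28% were called higher in NES, and 12.4%, 0.942% and 3.30% in OMM. DDX39B in NES with cycloheximide had 88.5 and 86.4 CPM in labelled libraries, against 226 and 164 CPM in unlabelled ones (−1.16 ± 0.19). In OMM with puromycin it had 116 and 100.1 CPM in labelled libraries, against 247 and 225 CPM in unlabelled ones (−1.13 ± 0.19). Over the 6 groups DDX39B was 2.00 to 2.34-fold lower, the narrowest range of the members, with edgeR adjusted p from 0.00013 to 0.0025. Its labelled libraries were below its unlabelled libraries in each group. The same held for DDX5 in 6 groups and for DDX39A in 5, and the share of all genes with such a separation was not counted. The call in OMM with puromycin was lost without labelled replicate 2 (−1.02, edgeR adjusted p = 0.096), and that in OMM with CCCP without unlabelled replicate 2 (−0.69, edgeR adjusted p = 0.0535). With only the compared libraries in the fit the OMM call with CCCP was lost too (−0.99, edgeR adjusted p = 0.0552).

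DDX5 lay between −1.03 and −0.51 over the 6 groups, with edgeR adjusted p from 2.5e-05 to 0.044. In OMM with cycloheximide it had 480 and 437 CPM in labelled libraries, against 939 and 929 CPM in unlabelled ones (−1.03 ± 0.14). In NES with CCCP it had 641 and 692 CPM in labelled libraries, against 992 and 909 CPM in unlabelled ones (−0.51 ± 0.14). The cycloheximide calls and the call in OMM with CCCP held without any 1 library, but with only the compared libraries in the fit the call in NES with cycloheximide was lost (−0.75, edgeR adjusted p = 0.104). In NES with CCCP the call was lost without labelled replicate 1 or 2 or unlabelled replicate 1 (−0.57 to −0.45, edgeR adjusted p = 0.0894 to 0.189). In NES with puromycin it was lost without labelled replicate 1 or 2 or unlabelled replicate 2 (−0.58 to −0.54, edgeR adjusted p = 0.0622 to 0.137), and in OMM with puromycin without any 1 of the 4 libraries (−0.57 to −0.51, edgeR adjusted p = 0.233 to 0.43).

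DDX39A fell in NES with each of the drugs and in OMM with CCCP. In NES with CCCP it had 91.8 and 83.0 CPM in labelled libraries, against 194 and 185 CPM in unlabelled ones (−1.12 ± 0.23, edgeR adjusted p = 0.0031). In NES with puromycin it had 94.5 and 86.9 CPM in labelled libraries, against 151 and 226 CPM in unlabelled ones (−1.05 ± 0.23, edgeR adjusted p = 0.0056). In NES cells without a drug the same contrast was −0.15, but the untreated libraries belong to another table and the difference was not tested. DDX39A calls hung on single libraries. They were lost in NES with cycloheximide without labelled replicate 1 (−0.61, edgeR adjusted p = 0.209) or unlabelled replicate 2 (−0.58, edgeR adjusted p = 0.156). In NES with puromycin they were lost without labelled replicate 2 (−0.97, edgeR adjusted p = 0.1) or unlabelled replicate 2 (−0.73, edgeR adjusted p = 0.121). The same held in NES with CCCP without labelled replicate 2 (−1.05, edgeR adjusted p = 0.0593) and in OMM with CCCP without any 1 of the 4 libraries (edgeR adjusted p = 0.0677 to 0.26). With only the compared libraries in the fit they were lost in NES with cycloheximide (−0.81, edgeR adjusted p = 0.101) and in OMM with CCCP (−0.78, edgeR adjusted p = 0.0552).

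The labelling contrast of DDX17 differed between the mitochondrial membrane and the cytosol under cycloheximide. In OMM it had 585 and 624 CPM in labelled libraries, against 925 and 1098 CPM in unlabelled ones (−0.74 ± 0.17, edgeR adjusted p = 0.0052). In NES it had 842 and 1072 CPM in labelled libraries, against 602 and 783 CPM in unlabelled ones (0.47 ± 0.17, edgeR adjusted p = 0.079). Labelled libraries were thus below their controls in OMM and above them in NES. The controls themselves differed, with a mean of 1011 CPM in OMM and 693 CPM in NES, so the contrasts differ in part through their controls. In untreated cells too the DDX17 contrast was lower in OMM than in NES, and whether cycloheximide changed this was not tested. The difference of these contrasts, OMM minus NES, was −1.21 ± 0.25 (edgeR adjusted p = 0.0021), where 4.16% of genes were called lower and 9.38% higher. Without any 1 of the 8 libraries the difference stayed called, between −1.41 and −1.03 (edgeR adjusted p up to 0.0143). With only the libraries of the comparison in the fit it was −1.24 (edgeR adjusted p = 0.0556). OMM unlabelled replicates 2 and 1 under cycloheximide lacked 7.75% and 3.08% of well-expressed genes, and the part of this in the difference was not tested. The OMM call by itself was lost without labelled replicate 1 (−0.69, edgeR adjusted p = 0.062) or unlabelled replicate 2 (−0.61, edgeR adjusted p = 0.0538) or with only the compared libraries in the fit (−0.84, edgeR adjusted p = 0.0545), and the NES rise was called without unlabelled replicate 2 (0.67, edgeR adjusted p = 0.0361).

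With puromycin the OMM minus NES difference of DDX17 was −0.22 ± 0.25 and with CCCP −0.40 ± 0.25 (edgeR adjusted p = 1 and 0.79), and whether these differ from the cycloheximide value was not tested. The share of genes called lower was 0.0140% with puromycin and 0% with CCCP, and 0.0979% and 0.00933% were called higher. With CCCP edgeR called 2 genes in all and DESeq2 459. The other members were not called in OMM minus NES with any drug. For DDX5 the values were −0.28 ± 0.19 with cycloheximide, 0.03 ± 0.19 with puromycin and −0.20 ± 0.19 with CCCP. DDX39B had −0.06 ± 0.27, 0.03 ± 0.27 and 0.22 ± 0.27, and DDX39A 0.63 ± 0.32, 0.62 ± 0.32 and 0.33 ± 0.32. Under cycloheximide, DDX5 was called without NES unlabelled replicate 1 (−0.55, edgeR adjusted p = 0.0438) and DDX39A without OMM unlabelled replicate 1 (0.99, edgeR adjusted p = 0.022).

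**Figure D4:**
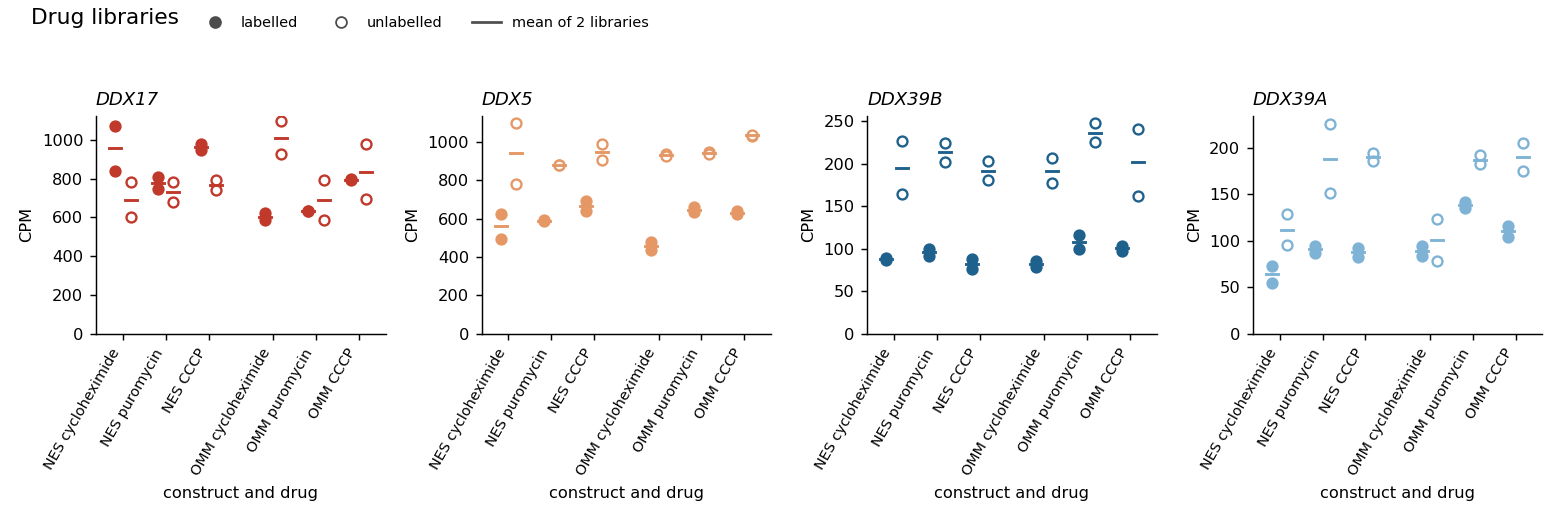
CPM of each helicase transcript in the drug libraries, filled circles for labelled and open circles for unlabelled libraries, with a bar at the mean of 2. Labelled DDX39B libraries are below their controls in all 6 groups, and DDX17 under cycloheximide is above its controls in NES and below them in OMM.

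In unlabelled RNA of the drug-treated cells DDX39A was lower under cycloheximide than under the other drugs, whereas the other members were not called. DDX39A had 95.5, 128, 123 and 78.3 CPM in the unlabelled cycloheximide libraries, against 151, 226, 183 and 192 CPM in the unlabelled puromycin libraries (−0.82 ± 0.16, edgeR adjusted p = 0.0038). Against the same cycloheximide libraries, CCCP libraries had 194, 185, 175 and 205 CPM (0.84 ± 0.16, edgeR adjusted p = 0.0039). Cycloheximide libraries did not overlap with either. Both calls held without any 1 of the 8 libraries (at least 0.66 lower and 0.69 higher on the log2 scale), but with only the libraries of the comparison they were lost (edgeR adjusted p = 0.273 and 0.268). The background was 5.19% of genes called lower and 3.09% higher in cycloheximide over puromycin, and 5.25% higher and 1.53% lower in CCCP over cycloheximide. Between CCCP and puromycin DDX39A had 0.02 ± 0.16, with 0.0373% of genes called higher and 0.0326% lower.

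Against untreated NES and OMM cells, which were counted in another table, DDX39A rose with puromycin (0.72 ± 0.18, edgeR adjusted p = 0.02) and CCCP (0.71 ± 0.18, edgeR adjusted p = 0.03) and had −0.11 ± 0.18 with cycloheximide. DDX17 fell with puromycin (−0.65 ± 0.12, edgeR adjusted p = 0.0013), cycloheximide (−0.42 ± 0.12, edgeR adjusted p = 0.038) and CCCP (−0.49 ± 0.12, edgeR adjusted p = 0.019). DDX39B fell with cycloheximide (−0.60 ± 0.13, edgeR adjusted p = 0.0088) and CCCP (−0.60 ± 0.13, edgeR adjusted p = 0.012). DDX5 fell with puromycin (−0.40 ± 0.11, edgeR adjusted p = 0.033). In these comparisons 3.69% of genes were called lower with cycloheximide, 2.63% with puromycin and 1.11% with CCCP, and 1.25%, 1.92% and 1.47% were called higher. A drug and the set of libraries cannot be told apart here, and the 3 drugs share their untreated libraries. The calls of DDX17 with puromycin and DDX39B with cycloheximide held without any 1 of the 8 libraries. That of DDX17 with cycloheximide was lost without replicate 1 of the NES or OMM libraries, treated or untreated (edgeR adjusted p = 0.0723 to 0.16). With CCCP it was lost without either treated NES library, treated OMM replicate 1 or untreated NES replicate 1 (edgeR adjusted p = 0.0505 to 0.111). The DDX39B call with CCCP was lost without treated replicate 1 of NES or OMM (edgeR adjusted p = 0.0614 and 0.0716). The DDX39A calls were lost with both drugs without untreated replicate 1 of NES or OMM, with CCCP also without either treated NES library or treated OMM replicate 2, and with puromycin also without treated NES replicate 2 or either treated OMM library (edgeR adjusted p = 0.0571 to 0.176). The DDX5 call with puromycin was lost without any treated library, untreated NES replicate 1 or untreated OMM replicate 2 (edgeR adjusted p = 0.0671 to 0.212). DDX5 was called with cycloheximide without treated NES replicate 1, and with cycloheximide and CCCP without untreated NES replicate 2 or untreated OMM replicate 1 (−0.50 to −0.38, edgeR adjusted p = 0.0131 to 0.0474).

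Nocodazole depolymerises microtubules, and the time course compares 5 times in the drug with each other. The nocodazole libraries include none without the drug, so whether RNA at the mitochondrial surface depends on microtubules cannot be told from them. No helicase transcript was called for a change over time, and DDX39B and DDX5 were low in labelled RNA at each of the 5 times in both constructs. DDX39B in OMM had labelled levels of 128 and 148 CPM at 3 min, 93.9 and 99.1 at 6 min, 104 and 84.9 at 9 min, 105 and 96.5 at 30 min, and 131 and 110 at 2 h, against 166 to 320 CPM in the 4 unlabelled libraries. In NES it had 124 and 114 CPM at 3 min, 85.3 and 94.8 at 6 min, 100.0 and 120.1 at 9 min, 103 and 122 at 30 min, and 84.7 and 106 at 2 h, against 199 to 317 CPM in the 4 unlabelled libraries. Every labelled library of DDX39B was below every control of its construct. Each time was tested against the mean of the controls at 3 and 30 min, which the 5 times share.

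In order of time the DDX39B log2 fold changes were −0.79, −1.31, −1.34, −1.24 and −0.99 in OMM, and −1.40, −1.11, −1.08 and −1.32 in NES from 6 min on, where DDX39B was 2.00-fold lower at 3 min, all called (SE 0.22 to 0.23). Those of DDX5 were −1.01, −1.30, −0.93, −0.90 and −0.83 in OMM and −0.73, −0.94, −0.57, −0.73 and −0.65 in NES, all called (SE 0.13 to 0.14). The shares of the 19611 genes tested that were called lower were 1.88%, 3.00%, 2.53%, 2.09% and 2.89% in OMM and 2.14%, 2.38%, 0.826%, 1.40% and 1.81% in NES. Those called higher were 11.1%, 12.2%, 11.0%, 10.2% and 9.79% in OMM and 0.959%, 1.45%, 0.367%, 0.795% and 1.35% in NES. DDX17 was not called at any time, with −0.07, −0.18, −0.21, −0.21 and 0.11 in OMM and 0.45, 0.24, −0.04, −0.05 and 0.10 in NES. DDX39A was called once, at 2 h in NES (−1.27 ± 0.33, edgeR adjusted p = 0.033), and its other values lay between −0.97 and −0.18. In NES its labelled libraries too were below the controls at all 5 times, and in OMM they overlapped with the controls at each time.

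The calls depended on the libraries in the fit: with only the compared libraries, DDX5 was called at 2 of the 5 times in OMM and 0 in NES, and DDX39B at 1 of 5 in OMM and 2 in NES. In OMM the DDX5 calls held without any 1 library at all 5 times. The DDX39B call in OMM was lost at 3 min without labelled replicate 1 or 2 (−0.69 and −0.90, edgeR adjusted p = 0.161 and 0.0848) and at 2 h without labelled replicate 2 (−0.87, edgeR adjusted p = 0.0699). In NES the DDX39B call held at 6 min. It was lost without labelled replicate 1 or 2 at 3, 9 and 30 min and without labelled replicate 1 at 2 h, with values of −1.25 to −0.94 (edgeR adjusted p = 0.0726 to 0.701). The DDX5 call in NES held at 6 min. It was lost without labelled replicate 1 at 3 min, without labelled replicate 1 or 2 at 9 min, 30 min and 2 h, and at 9 min also without unlabelled replicate 1 of 3 min or unlabelled replicate 2 of 30 min, with values of −0.73 to −0.41 (edgeR adjusted p = 0.0668 to 0.71). The DDX39A call at 2 h was lost without either labelled library of 2 h, without unlabelled replicate 2 of 3 min or without unlabelled replicate 2 of 30 min (edgeR adjusted p = 0.0685 to 0.306). In OMM, without unlabelled replicate 1 of 3 min, DDX39A was called at 9 min (−1.12, edgeR adjusted p = 0.00542) and 30 min (−0.82, edgeR adjusted p = 0.0359).

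No member was called for any change among the 5 times (edgeR adjusted p = 1 for each in NES, and 0.89 to 1 in OMM), where 0.0816% of genes in NES and 0.490% in OMM were called. The OMM minus NES difference was not called for a member at any time, with values of −0.51 to 0.92. In order of time, 2.05%, 1.91%, 1.18%, 1.09% and 0.959% of genes were called higher there and 0.275%, 0.148%, 0.0102%, 0.0102% and 0.0306% lower. DDX17 at 3 min was −0.51 ± 0.24 and was called without OMM unlabelled replicate 1 of 30 min (−0.69, edgeR adjusted p = 0.0224), and DDX39A at 2 h was 0.92 ± 0.44 and was called without OMM unlabelled replicate 2 of 3 min (1.28, edgeR adjusted p = 0.0428). The OMM controls were of low complexity: unlabelled replicate 2 of 30 min lacked 16.26% of well-expressed genes, and replicates 2 and 1 of 3 min lacked 13.44% and 11.52%. In these controls DDX17 had 563 and 1006 CPM at 30 min and 757 and 482 CPM at 3 min. Between 30 and 3 min of nocodazole, no member was called in unlabelled RNA, where 2.64% of genes were called higher and 0.724% lower. DDX39B had −0.44 ± 0.18 there (edgeR adjusted p = 0.18), and without OMM unlabelled replicate 1 of 30 min DDX39B (−0.58, edgeR adjusted p = 0.0344) and DDX17 (0.39, edgeR adjusted p = 0.0377) were called.

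**Figure D5:**
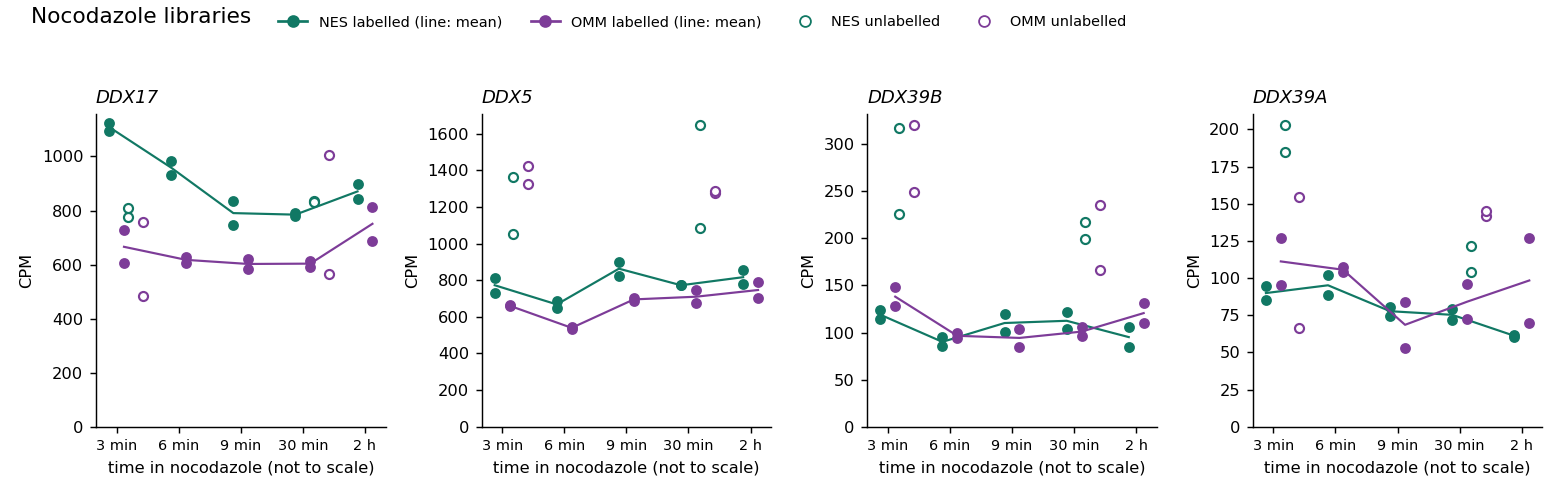
CPM of each helicase transcript in the nocodazole libraries by time, in order but not to scale. Filled circles are labelled libraries with a line through their means, open circles unlabelled libraries at 3 and 30 min. Labelled DDX39B and DDX5 libraries, and DDX39A libraries of NES, lie below the controls of their construct at each time. DDX17 and most DDX39A libraries of OMM do not separate from theirs.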

How the data were processed

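RNA-seq was measured in HEK293T cells, per the labels, in 97 libraries, of which 96 were used. The deposited counts, in 5 tables, are whole numbers of reads per gene with no normalization. The submitters' processing notes list STAR, HTSeq, Trimmomatic, bedtools, SAMtools and DESeq2 with no version, role or setting, and the build GRCh38. The authors' deposited tables also give log2 fold changes and p-values; per the file headers neither their control set nor an adjustment of p is explained. Their log2 values were printed for the nuclear constructs and their p-values were not used. The number of unused sample columns was 0.

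Members were found by symbol in each table, joined by Ensembl identifier (36149 names from deposited tables, 21296 only from GENCODE 29). Counts were tested with edgeR 4.0.16 in R 4.3.3: TMM scaling, default filter on low counts, trended dispersion, 1 quasi-likelihood model of group means per table, and Benjamini-Hochberg adjustment over all genes of a comparison. All 4 members passed the filter in every table. An SE was derived from a log2 fold change and its F statistic. Where 1 library was left out, the dispersion trend of all libraries was kept and a lone library was taken to vary like the other groups. The untreated NES and OMM libraries were joined to the drug table by gene identifier. The technical repeat of a MITO library was left out.

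The members, the gene lists and the comparisons were chosen with earlier results of these data known. Named genes are the members, and of each list up to 3 genes called higher and 2 called lower with the smallest p, landmarks, overlapping genes and the 3 genes most correlated with each member, of which some are described. The alternatives tried were each library left out, a replicate block, other sets of controls, a fit of the compared libraries alone, no filter on low counts, RLE scaling and DESeq2 1.42.0. Added after seeing the data were a crossed block for MITO and the removal of the OMM nocodazole controls lacking over 10% of well-expressed genes. The method was tested on simulated data. Sequences and coordinates are from GENCODE 29 on GRCh38. The replicates are called biological in the labels, which do not say whether they were separate cultures, so p-values measure the spread between these libraries.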

Additional observations from a re-analysis of the deposited data

Results flagged for a closer look

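The labelling contrast of DDX17 differed between the outer mitochondrial membrane and the cytosol under cycloheximide: the difference, OMM minus NES, was −1.21 ± 0.25 on the log2 scale (edgeR adjusted p = 0.0021). Both labelled OMM libraries were below both of their controls, and both labelled NES libraries were above both of theirs. The controls differed as well, with a mean of 1011 CPM in OMM and 693 CPM in NES. The control libraries of OMM under cycloheximide lacked 3.08% and 7.75% of well-expressed genes, and the part of this in the difference was not tested. With only the compared libraries in the fit the call was lost (−1.24, edgeR adjusted p = 0.0556).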

How the results depend on the processing

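The 196 member values were recomputed 2372 times under the alternatives. Of these, 2209 stayed as they were, that is on their side of the threshold, or within their SE for values given without a test. A further 113 lost their call, 32 gained one and 18 values given without a test moved by more than their SE. No call changed sign, and 130 values called under neither setting, all counted above, did. Against the unlabelled libraries of all 9 constructs, DDX17 was 2.02 in NLS, 2.27 in LMA, 0.53 in NUCP and −0.085 in OMM (edgeR adjusted p = 0.886, call lost), DDX39B was 2.13 in NLS and 0.96 in NIK, and DDX5 was 0.30 in NIK and 0.16 in LMA. DDX5 in NES was called with RLE size factors (−0.70), without a filter (−0.63) and with DESeq2 (−0.70, adjusted p = 0.0113). When the compared libraries were fitted alone, DDX39B in NES (−1.23, edgeR adjusted p = 0.253) and DDX17 in OMM (−0.71, edgeR adjusted p = 0.0696) were not called. Without 1 library at a time, DDX39A ranged from −1.27 to −0.89 in ERM, −0.77 to −0.037 in LMA and −0.90 to 0.061 in NIK, DDX17 from 2.58 to 3.01 in LMA and −0.78 to −0.57 in OMM, and DDX5 from −0.79 to −0.52 in NES, −1.16 to −0.83 in OMM and 0.69 to 0.89 in the fractions.

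Of the 6 drug comparisons DDX17 was called in 1, and in 2 without a filter, 0 when the compared libraries were fitted alone and 0 to 2 without 1 library. Of the 5 nocodazole comparisons in NES, fitting the compared libraries alone left 0 calls for DDX5 and 2 for DDX39B, DDX17 had 1 call without a filter or with controls of both constructs, and DDX39A had 0 calls without a filter, 3 with DESeq2 and 0 to 1 without 1 library. In OMM the same fit left 2 calls for DDX5 and 1 for DDX39B, and DDX39A had 1 call with DESeq2 or controls of both constructs and 0 to 2 without 1 library. Leaving out the 3 OMM controls of lowest complexity kept 39 of 40 values on their side, and DDX39B at 3 min lost its call (−0.74, edgeR adjusted p = 0.0878). Counts of all genes called moved by over 1.5 times in 47 of 49 comparisons with DESeq2, for example 2391 against 1179 in NLS and 1965 against 1131 in OMM. On leaving out 1 library they moved so in 210 cases and not in 114.

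With 2 replicate numbers shared by the groups, deviations of same-numbered libraries correlated between −0.161 and 0.148 over 22 comparisons, so the numbers were not taken to pair libraries. With a replicate block DDX17 was called in 2 of 6 drug comparisons, as it was in NES with cycloheximide (0.47, edgeR adjusted p = 0.0449), and DDX5 in OMM with puromycin (−0.54, edgeR adjusted p = 0.0531) and DDX39A in OMM with CCCP (−0.78, edgeR adjusted p = 0.0502) were not called. With the pairing of MITO crossed, the counts of calls stayed within 1.5 times. Depth limited DDX39A most in the MITO total RNA libraries, with 49 counts at the lowest.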
